A study of Homo sapiens with 2 samples.

Results

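The genes described here, 10 in number, take up, store, release, export and sense iron, and they were measured in U87MG, a long-established line of human glioblastoma cells. They are the ferritin chains FTH1 and FTL, the ferritin receptor NCOA4, the uptake genes TFRC, STEAP3 and SLC11A2, the exporter SLC40A1, the heme-degrading HMOX1, and the iron sensors ACO1 and IREB2. The rule was a list of 10 symbols looked up in the gene table, and all 10 had exactly 1 coding row among the 14376 protein-coding genes and 21445 genes listed. No listed gene was at 0 FPKM. All coding genes below means the listed ones, and coding genes without a row do not enter their median, ranks or shares. The members were selected on their role with their FPKM values in this same library in view, so the levels are a description and carry no test.

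The series holds 1 mRNA library and 1 small RNA library of untreated U87MG cells, with no replicate, no normal glial cell and no iron-loaded or iron-starved culture. Per the labels, the cells were kept in MEM with 10% FBS and 1% antibiotics, RNA was taken with Trizol, and the RNA integrity number was 9.3 for total RNA. FPKM counts fragments per length of gene and per size of library, so levels of different genes can be set side by side within the library. How deeply the mRNA library was sequenced is unknown, and no value could be set against a spread between replicates.

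Cells take in iron mostly as transferrin bound to the transferrin receptor, reduce it in the endosome and pass it to the cytosol through a divalent metal transporter. Ferritin, a hollow shell of heavy and light chains, oxidises and stores what is not used, and ferroportin is the one known exporter of iron in mammals. The iron regulatory proteins bind hairpins called iron-responsive elements: in a 5′ UTR, as in ferritin and ferroportin mRNA, binding blocks translation, and in the 3′ UTR of the transferrin receptor it protects the mRNA from decay. Ferritin output is therefore set in large part after transcription, and mRNA levels such as those below do not give protein levels.

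The ferritin chains stood far above the other iron genes, and the exporter stood lowest. FTH1 was listed at 8036 FPKM and FTL at 2825, whereas the other 8 members ran between 0.108 and 201 FPKM. FTH1 and FTL together held 96.0% of the summed FPKM of the 10 members, and 2.90% of that of all coding genes. Of the 10 members 9 were at 1 FPKM or more, against 77.5% of all coding genes. At 10 FPKM or more there were 8 members, against 43.8% of coding genes, and at 100 or more there were 3, against 3.83%. The median of log2(FPKM + 1) was 5.73 over the members and 3.14 over all coding genes. These shares describe a list picked with its values in view.

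**Figure D1:**
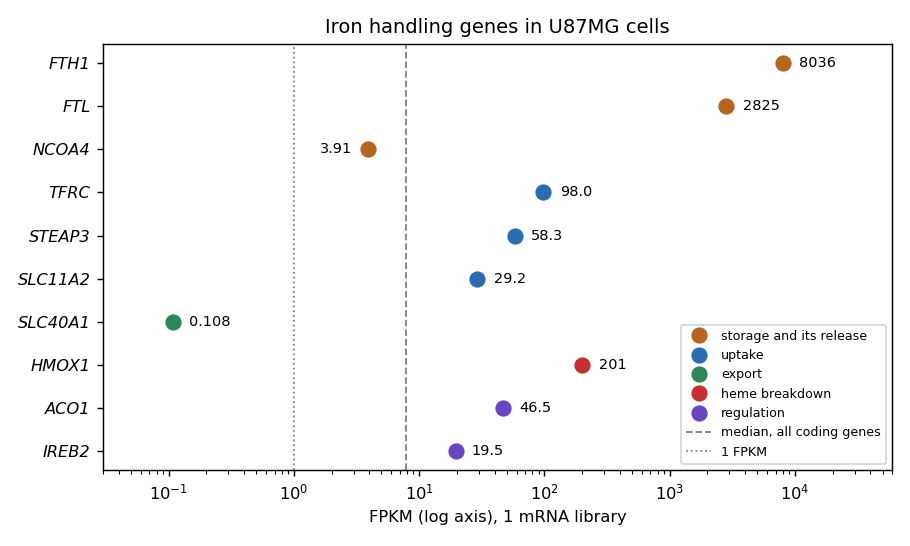
FPKM of the 10 iron handling genes in the mRNA library, on a log axis; each point is 1 gene in 1 library, coloured by role, the dashed line is the median of all coding genes (7.82 FPKM) and the dotted line is 1 FPKM. FTH1 and FTL lie at 8036 and 2825 FPKM, 6 genes lie between 19.5 and 201, NCOA4 lies at 3.91 and SLC40A1 at 0.108.

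FTH1 encodes the ferritin heavy chain, whose ferroxidase site oxidises ferrous iron as it enters the shell. At 8036 FPKM it ranked first of all coding genes, 1028 times the coding median of 7.82 FPKM. The next coding gene, the glycolytic enzyme gene GAPDH, was at 3358 FPKM, so FTH1 was 2.39 times as high. FTL encodes the light chain, which has no ferroxidase site and helps to form the mineral core. At 2825 FPKM it was the fifth coding gene, between the actin-binding TMSB10 with 2925 and B2M, the invariant chain of class I molecules, with 2649. The ratio of FTH1 to FTL was 2.84, so heavy chain mRNA exceeded light chain mRNA per unit of length in this culture.

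Ferritin genes have many processed pseudogenes in the human genome, and reads of near-identical copies could be split among them by the authors' counting, whose rule is not stated in the sources at hand. The table listed 13 rows named as FTH1 pseudogenes and 2 named as FTL pseudogenes. FTH1P2 was the highest with 284 FPKM, which was above every member other than the ferritin genes themselves and 3.53% of the FTH1 level. FTH1P7 followed with 60.8 FPKM, FTH1P10 with 33.4 and FTH1P11 with 33.3. FTLP3 was at 45.2 FPKM, 1.60% of the FTL level, and FTLP12 at 0.508. Of the 15 rows 9 were at 1 FPKM or more. No share over all listed pseudogenes is available beside this count, so it is not read as high or low. Summed, the FTH1 pseudogene rows came to 437 FPKM or 5.44% of FTH1, and the FTL rows to 45.8 FPKM or 1.62% of FTL. Whether these values are transcripts of the pseudogenes or reads of the parent genes cannot be told apart, and they are small beside the parents: with the rows added to their parents the ratio was 2.95.

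**Figure D2:**
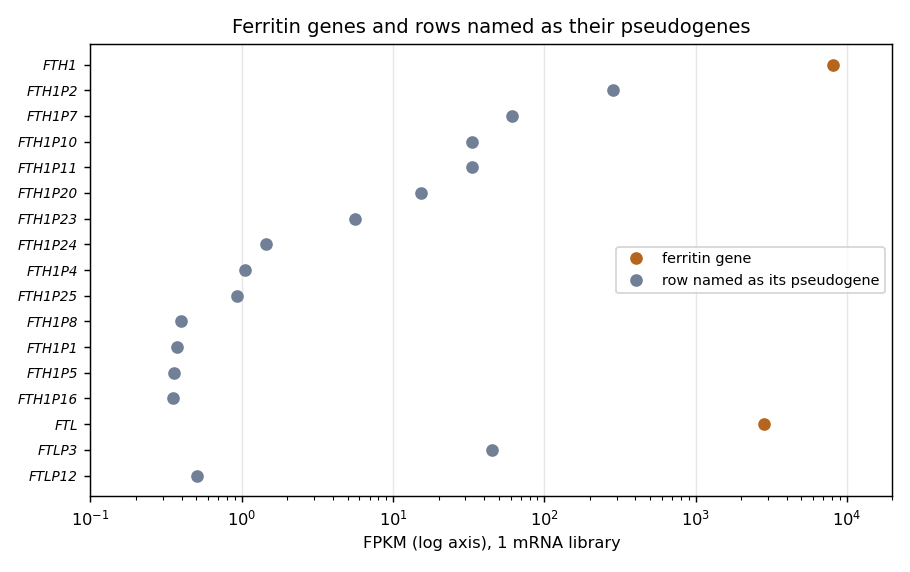
FPKM on a log axis for FTH1, FTL and the 15 rows named as their pseudogenes in the 1 mRNA library; brown points are the ferritin genes and grey points the pseudogene rows. FTH1 lies 28.3 times above FTH1P2 and FTL 62.4 times above FTLP3.

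The element through which iron controls ferritin translation lies at the start of the FTL transcript, and it is shown because FTL is among the most abundant coding mRNAs here. A ferritin-type element was searched in the first 50 transcribed bases of 35116 RefSeq start windows of GRCh38.p14. The pattern was a C, 5 stem bases, the loop CAGTGN, and 5 bases that pair with the stem, G with U allowed. Windows were available for 8 of the 10 members, 13 windows in all, and for neither FTH1 nor HMOX1. On the sense strand 8 windows of the 35116 held the pattern, or 0.0228%, and 13 windows, or 0.037%, when both strands were read. Among the members' 13 windows 1 held it, that of FTL. The loop CAGTGN alone, which is part of the pattern, occurred on the sense strand in 6.36% of all windows. Another of the 8 windows belonged to ALAS2, the red cell form of the first enzyme of heme synthesis and also a textbook target of the iron regulatory proteins. The 2 matches are printed as DNA, 5′ to 3′, with the loop in capitals.
FTL: cttcaaCAGTGTttgga
ALAS2: cgtcctCAGTGCagggc
The FTL match lies at chr19:48965341-48965357 on the plus strand, bases 33 to 49 of the transcript, and the ALAS2 match at chrX:55030947-55030963 on the minus strand, bases 15 to 31. FTL mRNA was listed at 2825 FPKM and ALAS2 mRNA at 0.157. A match is a description of letters and not a measurement of binding, and windows without one may carry an element further along.

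NCOA4, the cargo receptor that brings ferritin to lysosomes so that its iron is released, was low beside its cargo. It was listed at 3.91 FPKM, rank 9091 of 14376 coding genes, with 36.8% of coding genes below it. FTH1 was 2058 times and FTL 723 times as high. This value has a limit of its own: the identifier of the NCOA4 row, ENSG00000138293, is not in the current name table, which gives NCOA4 another identifier. The row also has no entry in the length column, unlike those of the other 9 members. That column has no unit, and whether FPKM was computed from it is not stated. The blank is therefore not read as a missing correction for length. Of the coding genes 298 shared the unmatched identifier and the blank length. Their median was 0.967 FPKM, 49.3% of them were at 1 FPKM or more, and 71.1% lay below NCOA4. The 13842 coding genes with a listed length had a median of 8.20 FPKM. The part that the identifier or the missing length played in the NCOA4 value was not tested, and without NCOA4 the members at 1 FPKM or more were 8 of 9.

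The 3 members of the transferrin route were all above the coding median, in the order receptor, reductase, transporter. TFRC, the transferrin receptor, was listed at 98.0 FPKM, rank 570, with 96.0% of coding genes below it. STEAP3, the reductase that turns ferric into ferrous iron in the endosome, was at 58.3 FPKM, rank 1119. SLC11A2, the divalent metal transporter DMT1, was at 29.2 FPKM, rank 2520. TFRC was 1.68 times STEAP3 and 3.36 times SLC11A2. With 1 library the spread that would separate these neighbours in level is unknown. The table also lists an antisense gene named for STEAP3, STEAP3-AS1, at 0.979 FPKM. Whether reads were counted by strand is not stated, so reads of the pair cannot be told apart; the STEAP3 value was 59.5 times that of the antisense row.

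SLC40A1, which encodes the exporter ferroportin, was the lowest of the 10 members and the only one below 1 FPKM. It was listed at 0.108 FPKM, rank 13455 of 14376, with 6.41% of the listed coding genes below it. The receptor TFRC stood 912 times higher, but this ratio rests on a value close to 0, and with 1 FPKM added to both it was 89.4. Values this low have unknown counting error because the depth of the library is unknown. In RNA from a whole culture, a low level in every cell and expression in a few cells cannot be told apart.

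HMOX1, the inducible heme oxygenase that opens the heme ring and frees its iron, was the highest member after ferritin. It was listed at 201 FPKM, rank 249, with 98.3% of coding genes below it. The constitutive enzyme of the same reaction, HMOX2, was at 8.76 FPKM, so HMOX1 was 23.0 times as high. BACH1, a heme-binding repressor of HMOX1 and of the ferritin genes, was at 34.7 FPKM. FTL was 14.1 times and FTH1 40.0 times as high as HMOX1.

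The iron sensors were both well above the coding median. ACO1, which is cytosolic aconitase when it holds an iron-sulfur cluster and iron regulatory protein 1 when it does not, was at 46.5 FPKM, rank 1463. IREB2, iron regulatory protein 2, which is degraded when iron is plentiful, was at 19.5 FPKM, rank 3731. IREB2 mRNA was 0.419 times ACO1 mRNA. FBXL5, the iron-binding adaptor that marks the regulatory proteins for degradation, was at 29.8 FPKM, between them. In order of level the members were FTH1, FTL, HMOX1, TFRC, STEAP3, ACO1, SLC11A2, IREB2, NCOA4 and SLC40A1, and no error is available to say which neighbours differ.

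**Figure D3:**
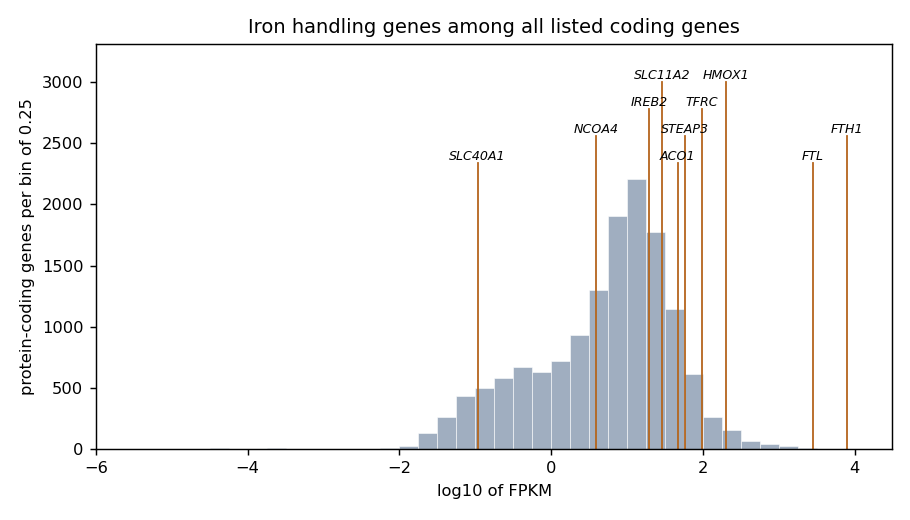
Number of coding genes in bins of 0.25 of log10 FPKM (grey bars, 14376 genes of the 1 mRNA library), with the 10 iron handling genes as vertical lines whose heights have no meaning. FTH1 and FTL lie at the far right, SLC40A1 at 0.108 FPKM lies in the left shoulder, and NCOA4 at 3.91 FPKM is the other member below the coding median.

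The members were set among 99 further iron genes in 8 lists drawn from general knowledge. Over the 109 genes together, 83 were at 1 FPKM or more (76.1%), 15 were listed below 1 and 11 had no row. Over the 98 genes with a row the share was 84.7%, against 77.5% of all coding genes, which all have one. Of the 99 genes that are not members, 88 had a row and 74 were at 1 FPKM or more, which is 74.7% of the 99. Among the 99, 5 were at 100 FPKM or more and none reached FTL. A missing row is not read as a lack of expression. In the list counts that follow, genes with no row stay in the denominator, unlike in the 77.5%.

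In the uptake list 13 of 20 genes (65%) were at 1 FPKM or more, against 77.5% of listed coding genes. TFRC was the highest with 98.0 FPKM, just ahead of LRP1, a receptor for heme bound to hemopexin, with 96.5. SLC39A14 (ZIP14), a transporter of iron that is not bound to transferrin, followed with 82.1 FPKM, 2.81 times SLC11A2. Of the STEAP family genes STEAP3 led with 58.3 FPKM, STEAP1 was at 19.5 and STEAP2 at 4.91, and STEAP4 had no row. TF, transferrin itself, TFR2, the second receptor, and LTF had no row either.

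In the storage list 7 of 10 genes (70%) were at 1 FPKM or more, against 77.5% of listed coding genes. FTH1 and FTL stood ahead of the iron chaperones that load ferritin, PCBP2 with 217 FPKM and PCBP1 with 57.4. The mitochondrial ferritin FTMT and the testis ferritin FTHL17 had no row, and SCARA5, a receptor for ferritin, was at 0.0426 FPKM. The export and hepcidin list had 5 of 12 (41.7%) at 1 FPKM or more. Its highest were APP with 135 FPKM, BMP2 with 15.6, the protease FURIN with 10.6 and HFE with 9.27. SLC40A1 and the ferroxidases that work beside it in other tissues were low or unlisted: CP was at 0.457 FPKM and HEPH had no row. HAMP, which encodes the hormone hepcidin, and HJV had no row.

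Of the 10 heme synthesis genes 9 (90%) were at 1 FPKM or more, against 77.5% of listed coding genes. UROD was at 68.1 FPKM, ALAS1, the form of the first enzyme found in most cells, at 28.6, UROS at 27.4 and CLPX at 13.3, while PPOX was at 4.58 and ALAS2 at 0.157. HMOX1 mRNA was 7.04 times that of ALAS1. In the list of heme breakdown and transport 10 of 16 (62.5%) were at 1 FPKM or more. HMOX1 led, followed by biliverdin reductase BLVRB with 112 FPKM, the heme-binding PGRMC1 with 86.0 and BACH1 with 34.7. SLC46A1 was at 0.0321 FPKM and HRG had no row.

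The genes of the sensing system and of iron-sulfur cluster assembly were nearly all at 1 FPKM or more, against 77.5% of listed coding genes. All 7 genes of the sensor list were, from SKP1, part of the ligase that FBXL5 serves, with 229 FPKM, through ACO1 with 46.5 and CUL1 with 31.0, to RBX1 with 28.9 and IREB2 with 19.5. IREB2 was thus the lowest gene of its list although above the coding median. Of 23 mitochondrial genes 22 reached 1 FPKM, and the highest were the chaperone HSPA9 with 127 FPKM, the scaffold ISCU with 37.9, ISCA1 with 32.6 and FDX2 with 23.7, and ending with FDXR at 2.93 and IBA57 at 0.894. Of 11 cytosolic assembly genes 10 reached 1 FPKM, led by GLRX3 with 46.1 FPKM, CIAO2B with 44.0, CIAO1 with 34.1 and CIAPIN1 with 27.7, with NDOR1 at 3.96 and no row for BOLA2.

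mRNAs with a known iron-responsive element spanned the range of the members. Of these 8 of 10 (80%) were at 1 FPKM or more, close to the 77.5% of listed coding genes. Those with the element in the 5′ UTR lay at both ends: FTH1 and FTL at the top, the hypoxia factor EPAS1 at 54.2 FPKM, and ALAS2 at 0.157 and SLC40A1 at 0.108 at the bottom. TFRC and SLC11A2, which carry it in the 3′ UTR, SLC11A2 in some isoforms, were at 98.0 and 29.2 FPKM.

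**Figure D4:**
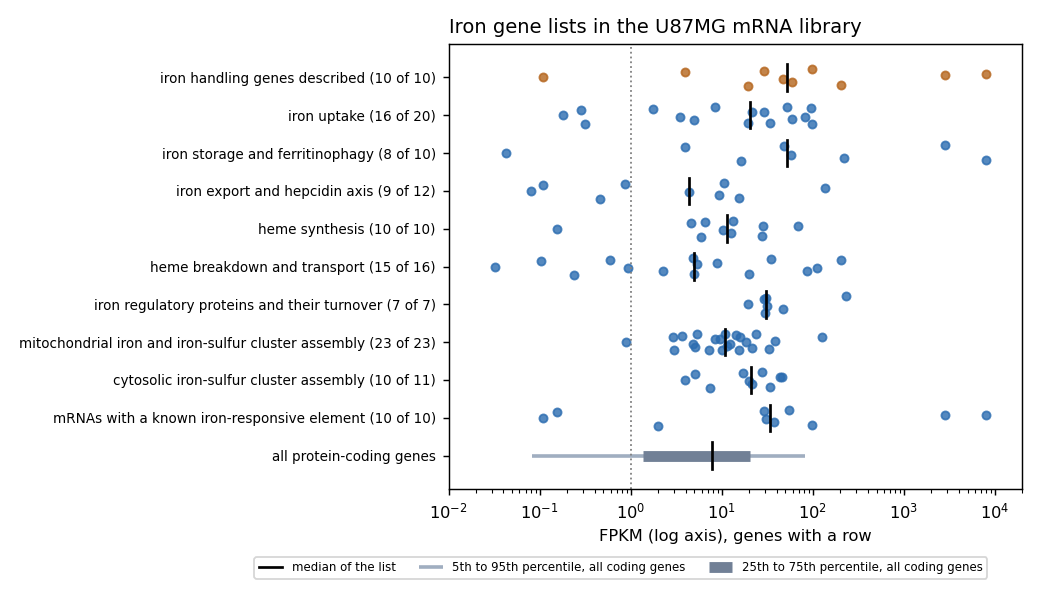
FPKM on a log axis of the genes with a row in each iron list of the 1 mRNA library; points are genes, black bars the medians of these genes, numbers in brackets the genes with a row among those listed, and the lowest line the spread of all coding genes. The 10 described genes have a median of 52.4 FPKM, the sensor list lies between 19.5 and 229 FPKM, and the export and hepcidin list has a median of 4.33 FPKM, below the coding median of 7.82.

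The small RNA library of the same line gives the levels of miRNAs that have been reported to act on these genes, or on BACH1, in other systems. The list of 17 miRNAs came from general knowledge, and levels in 1 library do not show that a miRNA acts on a target. All 17 had a row and together held 341024 reads, 2.89% of 11785001 miRNA reads. With the dominant miR-21-5p left out of the total this share was 7.03%, and that of miR-29a-3p was 1.71% in place of 0.704%. Of the 341024 reads let-7b-5p alone held 168106. Like miR-155-5p and miR-196a-5p, let-7b-5p was listed only for BACH1, which is not a member. The shares of the 17 are therefore not those of the members' miRNAs alone. Shares are given with exact Clopper-Pearson 95% intervals, which treat each read as a separate draw and cover at most counting error. Without molecular identifiers the reads cannot be taken as separate molecules, so the intervals may be too narrow.

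miRNAs linked to the sensor IREB2 and to TFRC are shown by sequence because they lead the reads reported for these genes (miR-29a-3p, miR-22-3p) or show which of them have a seed in common, and let-7d-5p, reported for SLC11A2, is shown with its more abundant relative. The deposited sequences are written with T, 5′ to 3′, and capitals mark the seed, bases 2 to 8. The miR-29 family shares the seed AGCACCA, miR-148a-3p and miR-152-3p share CAGTGCA, and let-7d-5p shares GAGGTAG with let-7b-5p.
miR-29a-3p: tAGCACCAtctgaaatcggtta
miR-29b-3p: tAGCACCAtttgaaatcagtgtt
miR-29c-3p: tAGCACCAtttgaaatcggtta
miR-152-3p: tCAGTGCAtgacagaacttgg
miR-148a-3p: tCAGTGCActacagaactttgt
miR-22-3p: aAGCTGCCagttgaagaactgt
let-7d-5p: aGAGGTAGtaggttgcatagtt
let-7b-5p: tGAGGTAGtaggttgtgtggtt

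miR-29a-3p, reported to lower IREB2, had 82988 reads or 0.704% (0.699 to 0.709%), rank 13 of 1224 miRNAs. With the same seed, miR-29b-3p had 4651 reads and miR-29c-3p 135, so miR-29a-3p held nearly all of the 87774 reads of the family. IREB2 mRNA was at 19.5 FPKM. The 5 miRNAs reported for TFRC had 64042 reads. Among them miR-22-3p had 26746 reads or 0.227% (0.224 to 0.230%), miR-152-3p 17576, miR-320a 10966, miR-148a-3p 4992 and miR-210-3p, a miRNA of hypoxia also reported for ISCU, 3762. TFRC mRNA was at 98.0 FPKM and ISCU mRNA at 37.9.

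The list held no miRNA for FTL, NCOA4, STEAP3 or ACO1. For the other members each listed miRNA had fewer reads than miR-320a. let-7d-5p, reported for SLC11A2, had 5399 reads or 0.0458% (0.0446 to 0.0471%). For SLC40A1, miR-20a-5p had 8460 reads and miR-485-3p 87, with SLC40A1 mRNA at 0.108 FPKM. For FTH1, miR-200b-3p had 864 reads or 0.00733% (0.00685 to 0.00784%), with FTH1 mRNA at 8036 FPKM. Among the members with a listed miRNA, HMOX1 had those with the fewest reads: miR-377-3p had 22 reads and miR-217 had 1, with HMOX1 mRNA at 201 FPKM. For BACH1, the repressor of HMOX1, let-7b-5p had 168106 reads or 1.43% (1.42 to 1.43%), miR-155-5p 6257 and miR-196a-5p 12.

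**Figure D5:**
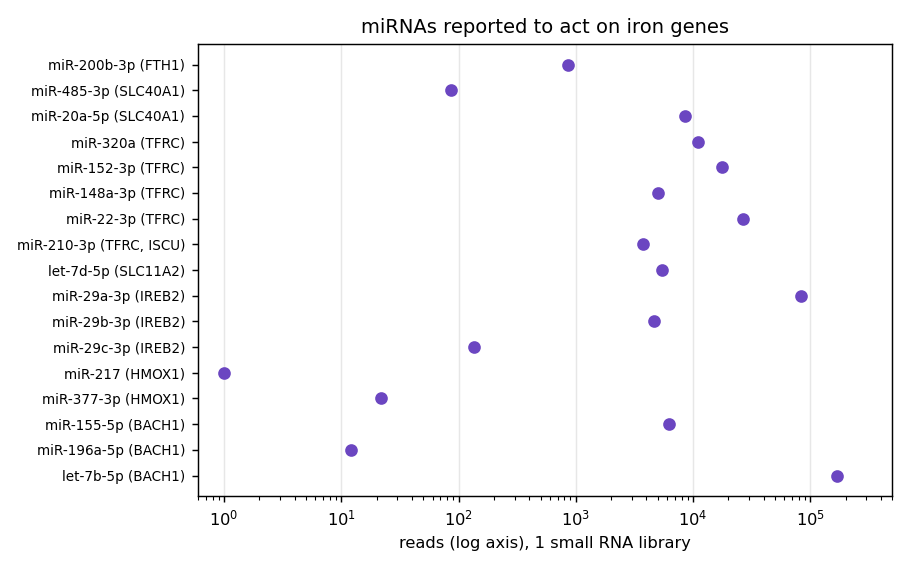
Reads on a log axis of the 17 miRNAs reported for iron genes (target in brackets) in the 1 small RNA library; each point is 1 miRNA. let-7b-5p and miR-29a-3p lie highest with 168106 and 82988 reads, and miR-217 lowest with 1 read.

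The label of the line was checked against markers. VIM was at 2420 FPKM and CD44 at 560, while GFAP, the filament of mature astrocytes, was at 0.331 and S100B, OLIG2, SOX2, CDKN2A and CDKN2B had no row. The iron genes are also strongly used by red cells, macrophages and hepatocytes. Summed levels of their markers are given over the genes with a row, and the part of such cells in the iron gene levels was not tested. Red cell markers had 0 of 7 genes at 1 FPKM or more, with HBB and HBA1 unlisted and a summed level of 0.263 FPKM. Of 8 macrophage and microglia markers 2 reached 1 FPKM, the lysosomal CD68 with 52.3 and CSF1R with 1.51, for a summed level of 54.3 FPKM, and there was no row for PTPRC, AIF1 and TYROBP. Hepatocyte markers had 1 of 7, SERPINA1 with 1.32 FPKM, a summed level of 2.21 FPKM, and no row for ALB, TF, HAMP and TTR.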

How the data were processed

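Per the labels, 1 mRNA library and 1 small RNA library of U87MG were sequenced. FPKM values per Ensembl gene and read counts per mature miRNA were deposited by the authors, per the file headers. The submitters' processing notes name cutadapt and the builds hg19 and GRCh37. The aligner, FPKM program, annotation, strand rule and RNA selection are not stated in those notes, the labels or the headers; for the mRNA library the labels repeat the small RNA protocol. The deposited gene table also has a length column without a unit, used only to see which genes lack one, and the lowest FPKM was 3.04e-06, so whole reads could not be recovered.

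Genes were matched by symbol, then by Ensembl identifier; 9 of the 10 member identifiers are in the current name table. Levels were ranked among coding genes, counted at 1 FPKM or more, and summarised as log2(FPKM + 1). Python 3.11.15, pandas 2.3.3 and scipy 1.17.1 were used, and ranks and the motif search were tested on simulated data. No test between conditions was possible. Sequences came from the deposited miRNA table and from RefSeq windows of GRCh38.p14. All members were named, with the 4 highest and 2 lowest genes of each list, unlisted genes first; other names were chosen after their values were seen. Some genes of the lists are counted but not reported here by name. Members and lists were chosen with earlier results of these data known. Alternatives covered thresholds, pseudocounts, pseudogene rows, ranks and denominators. The piRNA table was not used here.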

Additional observations from a re-analysis of the deposited data

How the results depend on the processing

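With 1 library of each kind no replicate could be left out. No paired analysis was possible because each kind of library has 1 sample. Of the 10 members, 9 were at 1 FPKM or more; this was also 9 at a threshold of 0.5 FPKM, 8 at 10 and, in an alternative added after seeing the data, 3 at 100. The median of the members, taken on the log2 scale with a pseudocount of 1 and turned back to FPKM, was 52.05; with a pseudocount of 0.1 it was 52.04, and without NCOA4, also added after seeing the data, 58.3. The ratio of FTH1 to FTL was 2.95 with pseudogene rows added and 2.84 with a pseudocount of 1. A pseudocount of 1 gave 89.4 for TFRC to SLC40A1 and 0.432 for IREB2 to ACO1. The share of wider iron genes at 1 FPKM or more was 84.7% over genes with a row. The 17 reported miRNAs, those listed only for BACH1 among them, held 7.03% of the reads once miR-21-5p was left out. Among all listed genes, which include short structured RNAs, FTH1 ranked 24 and FTL 44. Because the depth is unknown, low values such as that of SLC40A1 have no error.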

Other observations

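The 8 RefSeq start windows that held the ferritin-type pattern on the sense strand belonged to FTL and ALAS2, both on the iron lists, and to CTBP1, CEP43, F10, PGLYRP2, CCDC116 and a gene with only a LOC name, none of which is on those lists. These genes were named after the search was run, and the windows were not tested for folding or binding.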
